A study of Mus musculus with 11 samples.

Results

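Fas, Fasl, Tnfrsf10b, Tnfrsf1a, Tnfrsf1b, Tnfrsf12a, Tnfrsf9 and Cd27 encode death receptors and other members of the tumour necrosis factor (TNF) receptor family, together with the ligand of FAS. They were chosen by name for this role, and all 8 genes were found among the 54418 genes of the count table. Bulk RNA-seq was done on thymocytes, the T cell precursors that mature in the thymus, from 4 wt mice, 4 Zmat3-/- mice and 3 Puma-/-p21-/-Zmat3-/- (TKO) mice. Zmat3 encodes an RNA-binding protein, Puma (Bbc3) a BH3-only protein that starts apoptosis, and p21 (Cdkn1a) an inhibitor of cyclin-dependent kinases, and each is a transcriptional target of TRP53. The mice were 8 to 12 weeks old and on a C57BL/6-WEHI background. Both mutant genotypes lack Zmat3, TKO mice also lack Puma and p21, and the wt mice carry none of these deletions. RNA came from unsorted thymic cells of each mouse, and mice lacking Puma or p21 alone were not part of the comparison, so that the loss of Puma cannot be told apart from the loss of p21 in the TKO mice.

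Receptors of this family bind trimeric ligands on neighbouring cells or in solution. FAS (encoded by Fas), TNFR1 (encoded by Tnfrsf1a) and the TRAIL receptor DR5 (encoded by Tnfrsf10b) carry a cytoplasmic death domain, through which adaptors such as FADD and TRADD recruit caspase-8 or, in the case of TNFR1, first the kinases that activate NF-kB. TNFR2 (encoded by Tnfrsf1b), 4-1BB (encoded by Tnfrsf9), CD27 and FN14 (encoded by Tnfrsf12a) have no death domain and signal through TRAF proteins, mostly for survival and activation. FAS is abundant on immature CD4+CD8+ thymocytes, CD27 is a costimulatory receptor of T cells from the thymus onwards, and Fas and Tnfrsf10b are known targets of TRP53.

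The total counts per library ranged from 17669715 to 80207003. The wt libraries fell into 2 pairs. The correlation of log2 CPM (counts scaled to a common library size with TMM factors) across tested genes was 0.982 between wt mice 1 and 2 and 0.983 between wt mice 3 and 4, but 0.892 to 0.923 across the pairs, whereas the mean correlation of a mouse with its own genotype was 0.987 to 0.988 among Zmat3-/- mice, with 0.977 to 0.982 among TKO mice. In 81.6% of 13480 tested genes the ranges of these pairs did not overlap. Xist, which marks cells with 2 X chromosomes, was high in mice 1 and 2 of the wt group, mice 1 and 2 of the Zmat3-/- group and mouse 1 of the TKO group, and low in the others, so that Xist level and library pair cannot be told apart in wt mice. The comparisons of the 8 genes with wt mice are therefore given with each pair of wt mice as well. Zmat3 transcripts were counted at 9.88 to 26.8 CPM in wt mice but at 5.34 to 6.85 CPM in Zmat3-/- mice and 7.78 to 8.25 CPM in TKO mice, Bbc3 was lower in all TKO mice (12.9 to 15.2 CPM) than in the other mice (15.3 to 20.1 CPM), and Cdkn1a was at 2.49 to 3.52 CPM in TKO and 3.53 to 10.4 CPM in wt mice. Thymocyte marker genes (15 of 15 tested) summed to 12354 to 17306 CPM over all mice.

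Levels of different genes were compared per kilobase of exon, with the exons of each gene joined (GENCODE M21, build GRCm38). Cd27 had the highest level, with a median over the 11 mice of 136 CPM per kb and a range of 117 to 187. Fas (median 34.4, range 28.2 to 45.4) and Tnfrsf1a (median 26.7, range 23.4 to 33.9) came next and overlapped each other. These were followed by Tnfrsf1b with a median of 10.3 CPM per kb (8.27 to 12.0) and Tnfrsf9 with 4.11 CPM per kb (2.77 to 6.69), whose ranges overlapped neither each other nor that of Tnfrsf1a. The lowest levels were those of Tnfrsf12a (median 1.70, range 0.856 to 6.84), Tnfrsf10b (median 0.856, range 0.656 to 1.02) and Fasl (median 0.739, range 0.397 to 0.923), and each of these ranges overlapped that of the gene before it in this order. Within the TKO mice Tnfrsf12a, at 5.72 to 6.84 CPM per kb, lay above Tnfrsf9, at 3.73 to 4.11. In unsorted cells, fewer cells of a type and less RNA per cell cannot be told apart. The order of the medians over all 11 mice was the same when the length of the longest transcript was used, and the order within genotypes was not compared with that length.

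**Figure D1:**
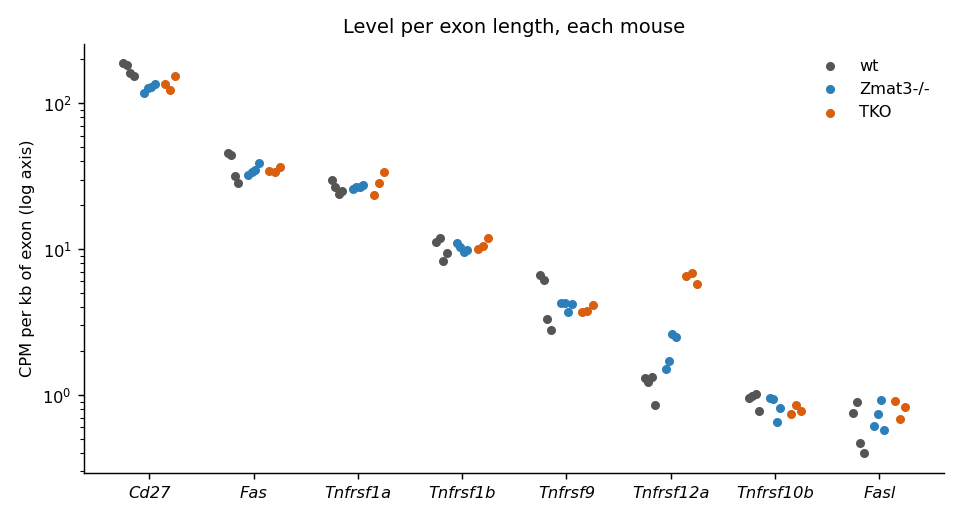
Level of each gene in CPM per kb of exon (log axis), 1 point per mouse, coloured by genotype, with genes ordered by their median. Cd27 lies above all other genes in every mouse, and Tnfrsf12a spans the widest range, from 0.856 in a wt mouse to 6.84 in a TKO mouse.

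Genotypes were compared with edgeR's quasi-likelihood test over all genes, and the call of a differentially expressed (DE) gene needed an adjusted p under 0.05 with an absolute log2 fold change (log2FC) over 1.5. All 8 genes passed the filter on low counts in all 3 comparisons. Tnfrsf12a alone was called, higher in TKO than in wt mice and higher in TKO than in Zmat3-/- mice. That was 1 of 8 genes in TKO against wt, where 0.241% of the 13275 tested genes were called (0.294% at an adjusted p under 0.05 without the fold threshold), and 1 of 8 in TKO against Zmat3-/-, where 0.122% of 13132 were called (0.221% without the fold threshold). Between Zmat3-/- and wt mice edgeR called 0 of 8, with or without the fold threshold, against 0.319% and 0.764% of 13480 genes, 2 of the 8 had an unadjusted p under 0.05 (all genes 16.1%), and DESeq2 found 2 at an adjusted p under 0.05 (all genes 8.03%). With the replicate numbers as pairs, the genes called DE in this comparison fell from 43 to 8, and 0 of the 8 genes were called. In TKO against wt mice 2 of 8 had such a p (all genes 10.3%), and in TKO against Zmat3-/- mice 1 of 8 (all genes 4.49%). The median log2FC of the 8 genes was −0.05 in TKO against wt (all tested genes −0.04), 0.04 in TKO against Zmat3-/- (all −0.01) and −0.04 in Zmat3-/- against wt mice (all −0.03).

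**Figure D2:**
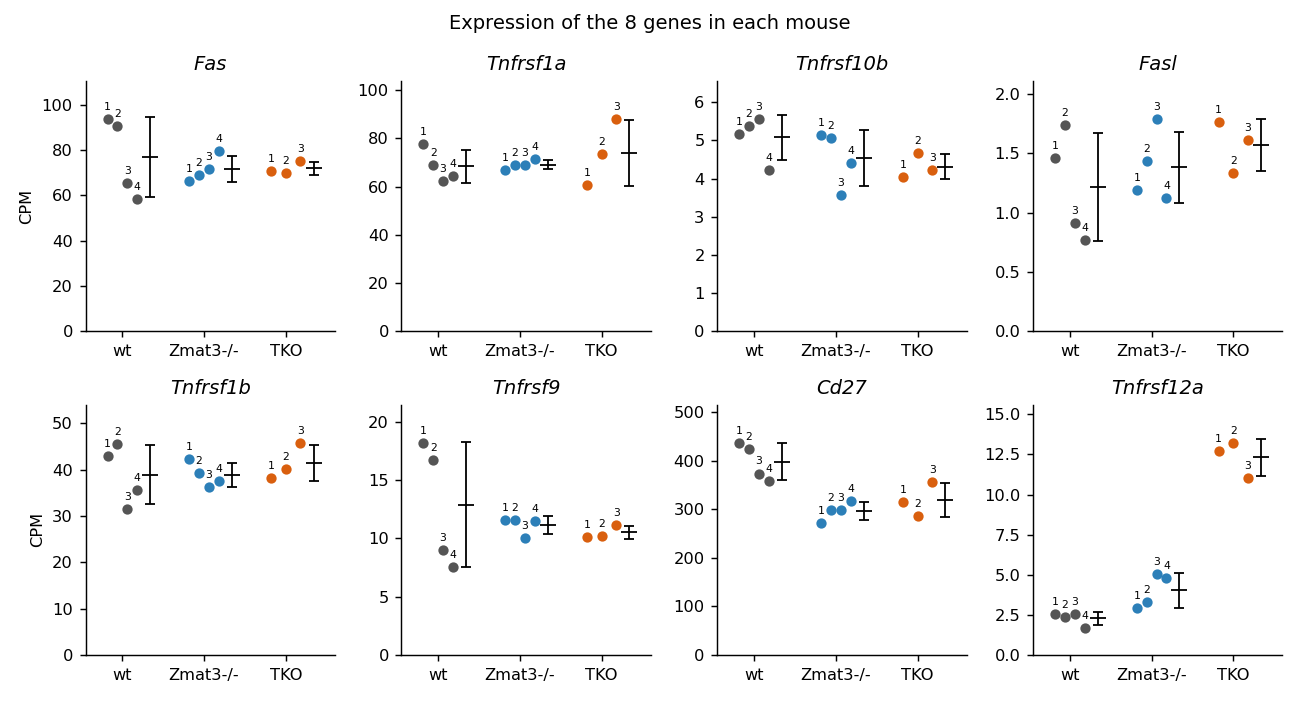
CPM of each gene in each mouse (numbered points), with the mean and SD of each genotype as a black bar. The 3 TKO mice lie above all other mice for Tnfrsf12a, at 11.05 to 13.2 CPM, and all 7 mutant mice lie below the 4 wt mice for Cd27. For Fas, Fasl, Tnfrsf1a, Tnfrsf1b, Tnfrsf9 and Cd27, wt mice 1 and 2 lie above wt mice 3 and 4.

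Tnfrsf12a (ENSMUSG00000023905.15, chromosome 17 from 23675445 to 23677468, minus strand) encodes FN14, the receptor of TWEAK and a gene that growth factors induce in many cells. It was counted at 2.52, 2.36, 2.57 and 1.65 CPM in wt mice 1 to 4 and at 2.91, 3.29, 5.07 and 4.82 CPM in Zmat3-/- mice 1 to 4. In TKO mice 1 to 3 it was at 12.7, 13.2 and 11.05 CPM. The 3 genotypes did not overlap, with wt mice lowest, Zmat3-/- mice between and TKO mice highest. Tnfrsf12a rose from 2.28 ± 0.425 CPM (SD, n = 4) in wt to 12.3 ± 1.14 CPM (SD, n = 3) in TKO thymocytes, a fold of 5.29 (log2FC 2.40, standard error 0.231, adjusted p = 0.00632 from edgeR). It also rose from 4.02 ± 1.08 CPM (SD, n = 4) in Zmat3-/- to TKO thymocytes, a fold of 2.99 (log2FC 1.58, standard error 0.219, adjusted p = 0.0160 from edgeR). Between Zmat3-/- and wt mice the fold was 1.77 (log2FC 0.82, 95% interval 0.25 to 1.40), which did not pass (adjusted p = 0.164 from edgeR). DESeq2 gave an adjusted p of 0.0352 for this last difference. The two-sided exact permutation test gave p = 0.0286 in each of the 3 comparisons, the smallest p these numbers of mice allow. Counts of 43 to 95 in wt and 238 to 822 in TKO libraries lay behind these values.

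The calls of Tnfrsf12a were lost without some single mice, while its log2FC stayed at 2.29 to 2.54 against wt and 1.46 to 1.73 against Zmat3-/- mice. Leaving out 1 TKO mouse took all genes at an adjusted p under 0.05 from 39 to 16 to 18 in TKO against wt mice. In TKO against Zmat3-/- mice it took them from 29 to between 27 and 34. With the replicate numbers as a block, both calls were lost as well (adjusted p = 0.0744 against wt and 0.116 against Zmat3-/- mice from edgeR). The call against wt mice was lost without TKO mouse 1 (log2FC 2.39, adjusted p = 0.0555 from edgeR) and without TKO mouse 2 (2.31, adjusted p = 0.0588). The call against Zmat3-/- mice was lost without TKO mouse 1 (log2FC 1.53, adjusted p = 0.104), TKO mouse 2 (1.496, adjusted p = 0.0603) or Zmat3-/- mouse 2 (1.497, adjusted p = 0.0658), and without Zmat3-/- mouse 1 the log2FC of 1.46 stood under the fold threshold. With each pair of wt mice alone the difference kept its direction. Against wt mice 1 and 2 the log2FC in TKO mice was 2.32 (adjusted p = 0.000551 from edgeR), and against wt mice 3 and 4 it was 2.49 (adjusted p = 0.00249). In Zmat3-/- mice the log2FC was 0.73 against the first pair (adjusted p = 0.0495) and 0.90 against the second (adjusted p = 0.0468).

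Some immediate-early genes, which are transcribed within minutes of stimulation or handling of cells, were higher in both mutant genotypes. Of 25 tested, 6 were higher at an adjusted p under 0.05 in TKO than in wt mice and the same number in Zmat3-/- than in wt mice (edgeR), and these were Fosb, Klf4, Klf6, Nr4a1, Nr4a2 and Dusp1 in both. DESeq2 found 11 in TKO and 13 in Zmat3-/- mice in either direction, Jun, Junb and Egr2 among both. Btg2, which was lower in both mutant genotypes (log2FC −0.50 in TKO and −0.45 in Zmat3-/- mice from edgeR), was counted in both. With edgeR 15 of the 25 had an unadjusted p under 0.05 in each comparison, Btg2 again among them. Among the 25, 6 had a negative log2FC in TKO and 5 in Zmat3-/- against wt mice. The list summed to 2069 to 2327 CPM in wt mice 1 and 2, to 1271 to 1275 CPM in wt mice 3 and 4 and to 2375 to 2937 CPM in Zmat3-/- mice, with 2465 to 2973 CPM in TKO mice. Against wt mice the log2FC of Fosb was 3.84 in TKO and 3.73 in Zmat3-/- mice, that of Klf4 3.05 and 2.89, that of Dusp1 2.37 and 2.29, that of Nr4a2 2.21 and 2.26, that of Nr4a1 1.15 and 1.13 and that of Klf6 0.97 and 1.12. All 6 had an adjusted p under 0.05 against each pair of wt mice alone. With the replicate numbers as pairs, Klf4 (adjusted p = 0.0108) and Fosb (adjusted p = 0.0133) still passed in Zmat3-/- against wt mice, while Nr4a1, Nr4a2, Dusp1 and Klf6 had adjusted p-values of 0.0508 to 0.109 (edgeR). In TKO against wt mice the same block, a fit without mouse 4, left all 6 genes short of passing, with adjusted p-values of 0.0801 to 0.186 (edgeR). Their part in the rise of Tnfrsf12a over wt mice was not tested. Between TKO and Zmat3-/- mice, where Tnfrsf12a had a log2FC of 1.58, edgeR found 0 of the 25 at an adjusted p under 0.05, 0 at an unadjusted p under 0.05, and DESeq2 found 0. The largest log2FC of the list in that comparison was 0.37.

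Tnfrsf12a lies 5.41 Mb from Cdkn1a, one of the genes deleted in TKO but not in Zmat3-/- mice, and it is the only one of the 8 genes on the chromosome of a deleted gene. Of the 29 genes at an adjusted p under 0.05 between TKO and Zmat3-/- mice, 19 were on chromosome 17, which held 5.44% of the tested genes. All 19 lay within 10.1 Mb of Cdkn1a, and 10 were higher and 9 lower in TKO mice. DNA beside a deleted gene is inherited with the deletion, so the loss of the genes and the place of Tnfrsf12a near one of them cannot be told apart in these mice. In Zmat3-/- against wt mice, which share an intact Cdkn1a, 4 of 405 tested genes within 15 Mb of it had an adjusted p under 0.05, a window chosen after the positions were seen. In TKO against wt mice 9 of 39 genes at an adjusted p under 0.05 were on chromosome 17, 8 of them among the 404 tested in this window. Of 44 annotated genes within 250 kb of Tnfrsf12a, 11 were tested between TKO and Zmat3-/- mice and 2 passed, against 1 of 11 in TKO against wt and 0 of 9 in Zmat3-/- against wt mice (edgeR, adjusted p under 0.05), with 0 of the 9 also at an unadjusted p under 0.05 and 0 in DESeq2. Zscan10, a zinc finger gene 64.4 kb away, had a log2FC of 3.51 (adjusted p = 0.000151 from edgeR), and the pseudogene AC154766.1, 54.5 kb away, had 3.95 (adjusted p = 0.000173). The other tested neighbours did not pass: Hcfc1r1 at 0.218 kb had a log2FC of 0.12, Thoc6 at 1.56 kb −0.09, Mmp25 at 30.2 kb 0.06, Pkmyt1 at 48.9 kb −0.11 and Paqr4 at 58.7 kb −0.62. Flywch1, Zfp213, Srrm2 and Elob, 75.3 to 147 kb away, had log2FC values of −0.18, −0.28, −0.06 and −0.03. Among those not tested, Prss41, a serine protease gene 159 kb away that was picked out after its values were seen, had a mean of 0.0967 CPM in wt, 0.0722 CPM in Zmat3-/- and 1.41 CPM in TKO mice.

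**Figure D3:**
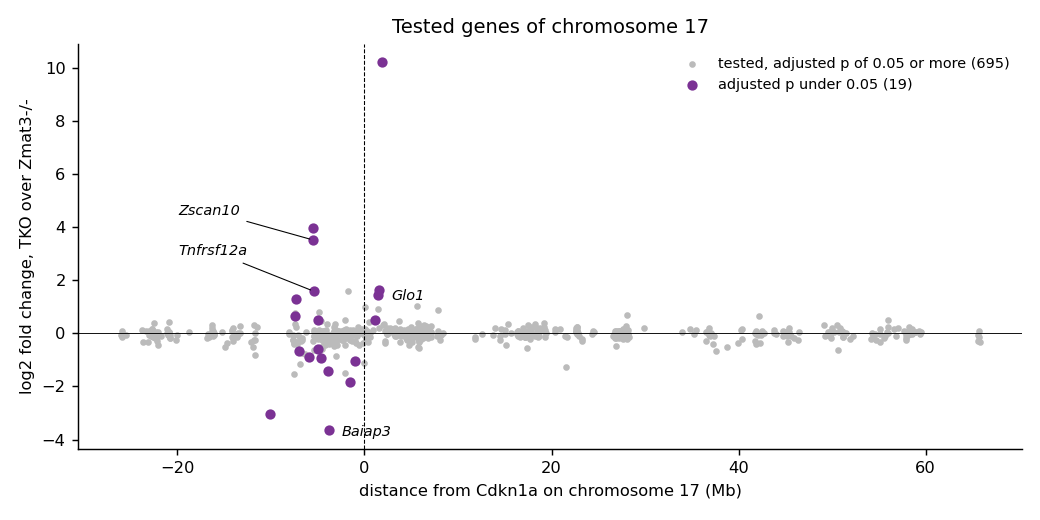
log2FC in TKO over Zmat3-/- mice of the tested genes of chromosome 17 against their distance from Cdkn1a in Mb (dashed line at 0). The 19 genes at an adjusted p under 0.05, Tnfrsf12a among them, lie within 10.1 Mb of Cdkn1a.

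RefSeq promoter entries (GRCm38.p6) were found for 7 of the 8 genes, 8 entries in all, and the 250 bases before each start site were searched on both strands. The motifs were AP-1 (TGANTCA), NF-kB (GGGA and CC with any 4 bases between), the half-site of the CRE (TGACG), the Sp1 GC box (GGGCGG), the TATA box (TATAAA) and the TRP53 half-site. The promoter of Tnfrsf12a is shown because the gene changed, and those of Fas and of 1 of the 2 start sites of Tnfrsf9 because the levels of these genes followed each other over the mice. Sequences run 5′ to 3′ on the strand of the gene, and capitals mark motif matches.
Tnfrsf12a, chr17:23677450-23677699, minus strand: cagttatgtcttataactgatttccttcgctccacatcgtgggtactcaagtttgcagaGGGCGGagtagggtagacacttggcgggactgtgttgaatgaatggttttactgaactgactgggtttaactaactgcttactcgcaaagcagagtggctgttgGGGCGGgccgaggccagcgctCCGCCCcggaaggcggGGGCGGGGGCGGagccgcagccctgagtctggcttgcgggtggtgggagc
Fas, chr19:34290409-34290658, plus strand: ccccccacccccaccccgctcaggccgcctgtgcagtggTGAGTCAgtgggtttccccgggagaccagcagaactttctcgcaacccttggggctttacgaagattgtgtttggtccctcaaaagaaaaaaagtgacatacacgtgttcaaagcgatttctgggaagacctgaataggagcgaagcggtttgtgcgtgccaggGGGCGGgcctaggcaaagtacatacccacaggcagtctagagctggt
Tnfrsf9, chr4:150927749-150927998, plus strand: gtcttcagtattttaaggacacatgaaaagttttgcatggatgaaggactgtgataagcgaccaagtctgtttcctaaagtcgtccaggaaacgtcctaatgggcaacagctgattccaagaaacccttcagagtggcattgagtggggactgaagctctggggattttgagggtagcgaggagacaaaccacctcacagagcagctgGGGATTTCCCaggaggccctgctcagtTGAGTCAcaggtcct
Tnfrsf12a held 5 Sp1 GC boxes, the nearest beginning 44 and 50 bases before the start site, and no match to the other motifs. The Sp1 GC box was found in 32.7% of all 32851 promoter entries. Fas held 1 AP-1 match and 1 Sp1 GC box, and the Tnfrsf9 entry held 1 AP-1 match 15 bases and 1 NF-kB match 42 bases before the start site. The other Tnfrsf9 entry, chr4:150919905-150920154, held 1 Sp1 GC box and no AP-1 or NF-kB match. AP-1 matches were found in 6.75% and NF-kB matches in 17.6% of all entries. The CRE half-site was in 17.8% of entries, the TATA box in 12.4% and the TRP53 half-site in 7.13%. Among the 8 genes the CRE half-site and the TRP53 half-site matched in Fasl, and Cd27 and Tnfrsf1a held no match. None of the matches printed overlapped another.

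Cd27 (ENSMUSG00000030336.14, chromosome 6 from 125232622 to 125237010, minus strand) was lower in every mutant mouse than in any wt mouse, without passing edgeR's adjusted test. It was at 436, 423, 373 and 359 CPM in wt mice 1 to 4 and at 272, 298, 299 and 317 CPM in Zmat3-/- mice 1 to 4. TKO mice 1 to 3 had 315, 285 and 355 CPM. The highest mutant value, in TKO mouse 3, stood just under the lowest wt value. The wt mean was 398 ± 37.6 CPM (SD, n = 4), the Zmat3-/- mean 296 ± 18.6 CPM (SD, n = 4) and the TKO mean 319 ± 35.1 CPM (SD, n = 3). The log2FC was −0.42 in Zmat3-/- against wt mice (95% interval −0.66 to −0.18, adjusted p = 0.112 from edgeR) and −0.37 in TKO against wt mice (−0.68 to −0.05, adjusted p = 0.427). It was 0.05 between TKO and Zmat3-/- mice (−0.11 to 0.21, adjusted p = 0.983). In exact permutation tests the differences from wt mice had p = 0.0286 in Zmat3-/- and 0.0571 in TKO mice. Together with Tnfrsf12a, Cd27 made up the 2 of 8 genes whose ranges did not overlap between TKO and wt mice (12.1% of all tested genes) and the 2 of 8 between Zmat3-/- and wt mice (14.1%), while 1 of 8, Tnfrsf12a, did not overlap between TKO and Zmat3-/- mice (4.92%).

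The difference of Cd27 from wt mice passed in some other fits and not in others. DESeq2 gave adjusted p-values of 0.000257 in Zmat3-/- and 0.0423 in TKO mice, and edgeR with 1 surrogate variable gave 0.000323 and 0.0107. In these fits Cd27 and Tnfrsf12a made up 2 of 8 genes at an adjusted p under 0.05, where DESeq2 found 8.03% of all genes in Zmat3-/- and 2.88% in TKO mice and the fit with the surrogate variable 37.8% and 18.0%. With the replicate numbers as a block the difference did not pass (adjusted p = 0.271 in Zmat3-/- and 0.310 in TKO mice from edgeR). Against wt mice 1 and 2 the log2FC was −0.52 in Zmat3-/- (adjusted p = 0.000562 from edgeR) and −0.46 in TKO mice (adjusted p = 0.0116), and against wt mice 3 and 4 it was −0.32 (adjusted p = 0.00481) and −0.26 (adjusted p = 0.0871). Of the thymocyte marker genes, 12 of 15 had a negative log2FC against wt mice in each mutant genotype. Their medians were −0.29 in Zmat3-/- and −0.21 in TKO mice (all tested genes −0.03 and −0.04). Their sums overlapped between genotypes, at 13619 to 15188 CPM in wt, 12354 to 14491 CPM in Zmat3-/- and 13197.5 to 17306 CPM in TKO mice. In both comparisons edgeR found 0 of 15 at an adjusted p under 0.05. At an unadjusted p under 0.05 it found 3 in Zmat3-/- and 1 in TKO mice (all genes 16.1% and 10.3%). DESeq2 called 3 and 0. The highest of the 15 markers in CPM, Rag1, Cd8a and Thy1, had log2FC values of 0.30, −0.23 and −0.38 in Zmat3-/- against wt mice (adjusted p = 0.71, 0.369 and 0.289). Their part in the level of Cd27 was not tested. The microRNA gene Mir8113 shares 5.54% of the exon bases of Cd27, and Vamp1, which overlaps the gene on the other strand, shares none. Cd70, the ligand of CD27, was at 0 to 0.5 CPM and was not tested.

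**Figure D4:**
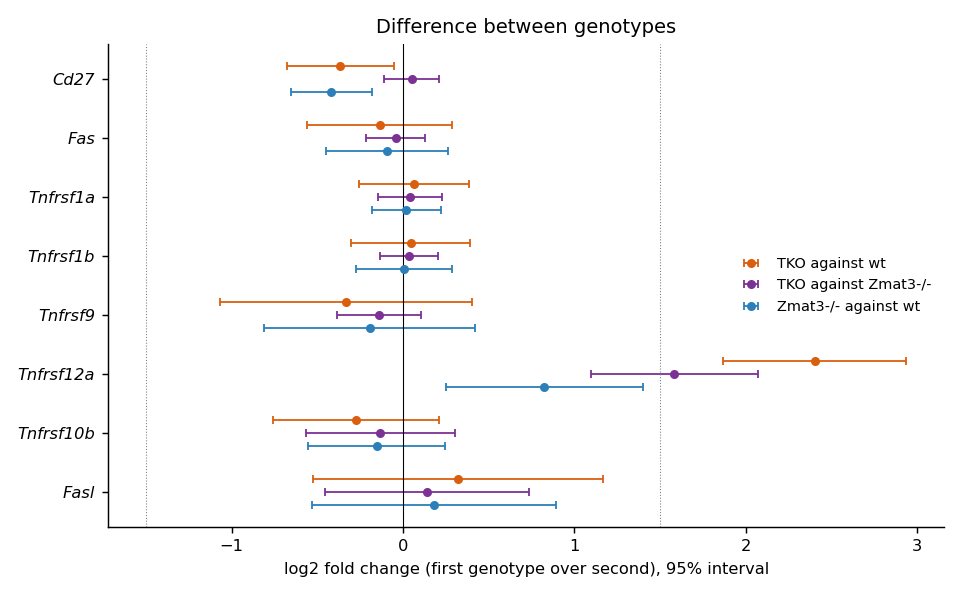
log2FC of each gene in the 3 comparisons with its 95% interval from the edgeR fit. Dotted lines mark 1.5 on either side of 0. The intervals of Tnfrsf12a lie above 0 in all 3 comparisons, those of Cd27 lie below 0 in both comparisons with wt mice, and all others include 0.

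Fas and Tnfrsf9 differed more among wt mice than between genotypes. Fas (ENSMUSG00000024778.13, chromosome 19 from 34290666 to 34327772, plus strand) was at 93.6, 90.5, 65.6 and 58.2 CPM in wt mice 1 to 4. The Zmat3-/- mice, at 66.3 to 79.7 CPM, and the TKO mice, at 69.7 to 75.2 CPM, lay between the 2 pairs of wt mice. Over all mice its log2FC was −0.09 in Zmat3-/- (95% interval −0.45 to 0.26, adjusted p = 0.782 from edgeR) and −0.14 in TKO against wt mice (−0.56 to 0.29, adjusted p = 0.775). Between TKO and Zmat3-/- mice it was −0.04 (−0.22 to 0.13, adjusted p = 0.983). Tnfrsf9 (ENSMUSG00000028965.13, chromosome 4 from 150914562 to 150946102, plus strand), whose product 4-1BB costimulates activated T cells, was at 18.2, 16.7, 9.04 and 7.54 CPM in wt mice 1 to 4, a ratio of 2.11 between the means of the pairs against 1.49 for Fas. The Zmat3-/- mice lay at 10.03 to 11.6 CPM and the TKO mice at 10.1 to 11.2 CPM. The log2FC over all mice was −0.19 in Zmat3-/- (−0.81 to 0.42, adjusted p = 0.736) and −0.33 in TKO against wt mice (−1.07 to 0.40, adjusted p = 0.700), and −0.14 between TKO and Zmat3-/- mice (−0.38 to 0.11, adjusted p = 0.983).

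The direction of both genes, and of Tnfrsf1a, Tnfrsf1b and Fasl, depended on the wt pair. Against wt mice 1 and 2, Fas had a log2FC of −0.35 in Zmat3-/- (adjusted p = 0.00669 from edgeR) and −0.38 in TKO mice (adjusted p = 0.0226), and Tnfrsf9 had −0.63 (adjusted p = 0.00155) and −0.75 (adjusted p = 0.00564). Against wt mice 3 and 4, Fas had 0.19 (adjusted p = 0.0887) and 0.16 (adjusted p = 0.300), and Tnfrsf9 had 0.41 (adjusted p = 0.0363) and 0.28 (adjusted p = 0.290). With wt mice 1 and 2 alone, 4 of 8 genes (Tnfrsf12a, Cd27, Fas and Tnfrsf9) had an adjusted p under 0.05 in each comparison, where 43.6% of all genes did in TKO and 56.1% in Zmat3-/- mice. With wt mice 3 and 4 alone it was 1 of 8 in TKO mice (Tnfrsf12a, all genes 8.14%) and 3 of 8 in Zmat3-/- mice (Tnfrsf12a, Cd27 and Tnfrsf9, all genes 33.0%). A total of 6 of the 8 genes were higher in both wt mice 1 and 2 than in wt mice 3 and 4, as were 43.7% of all 13480 tested genes.

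Summed marker levels also differed between the wt pairs. In wt mice 1 and 2 against wt mice 3 and 4, they were 133 to 166 against 75.4 to 77.5 CPM for cytotoxic and NK cell markers, 753 to 883 against 504 to 509 CPM for B cell markers and 422 to 451 against 228 to 246 CPM for myeloid markers. They were 274 to 283 against 174 to 200 CPM for stroma and epithelium markers, 2069 to 2327 against 1271 to 1275 CPM for immediate-early genes and, the other way, 880 to 1079 against 2172 to 8561 CPM for erythroid markers. Mature thymocyte markers summed to 699 to 729 against 606 to 612 CPM and, the other way, regulatory T cell markers to 162 to 186 against 227 to 232 CPM. The thymocyte markers also went the other way, at 13619 to 13925 against 14204 to 15188 CPM. The part of these lists in the levels of Fas and Tnfrsf9 was not tested. Between genotypes, the 7 marker lists of mature thymocytes, regulatory T cells, cytotoxic and NK cells, B cells, myeloid cells, stroma and epithelium, and erythroid cells gave 0 genes at an adjusted p under 0.05 in edgeR in all 3 comparisons. At an unadjusted p under 0.05 they gave 2 of 65 in TKO against wt (all genes 10.3%), 0 of 66 in TKO against Zmat3-/- (4.49%) and 14 of 66 in Zmat3-/- against wt mice (16.1%). DESeq2 called 1, 0 and 5, where it found 2.88% of all genes in TKO and 8.03% in Zmat3-/- against wt mice.

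**Figure D5:**
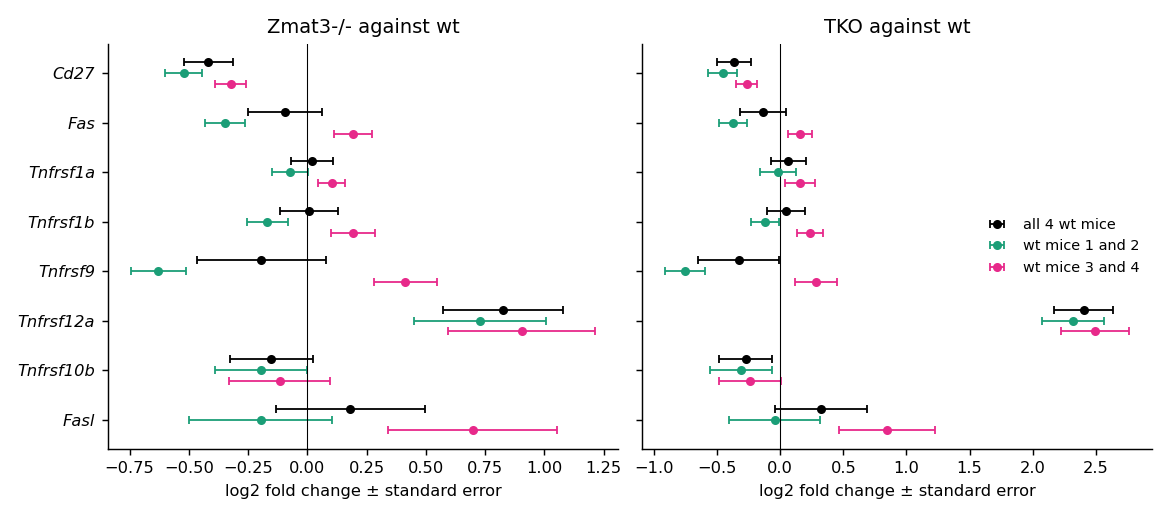
log2FC (± standard error, edgeR) of each gene in Zmat3-/- and TKO mice against all 4 wt mice, against wt mice 1 and 2 and against wt mice 3 and 4. Fas, Tnfrsf9, Tnfrsf1a, Tnfrsf1b and Fasl have opposite signs against the 2 pairs, whereas Tnfrsf12a stays above and Cd27 and Tnfrsf10b stay below 0.

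The other death receptors did not pass in any comparison. Tnfrsf1a (ENSMUSG00000030341.17, chromosome 6 from 125349362 to 125362484, plus strand) had a wt mean of 68.4 ± 6.81 CPM (SD, n = 4), a Zmat3-/- mean of 69.0 ± 1.88 CPM (SD, n = 4) and a TKO mean of 74.0 ± 13.7 CPM (SD, n = 3), and TKO mice spanned 60.6 to 87.9 CPM. Its log2FC was 0.06 in TKO against wt (95% interval −0.26 to 0.38), 0.04 in TKO against Zmat3-/- (−0.14 to 0.23) and 0.02 in Zmat3-/- against wt mice (−0.18 to 0.22). Tnfrsf10b (ENSMUSG00000022074.6, chromosome 14 from 69767472 to 69784411, plus strand) had means of 5.09 ± 0.592 CPM (SD, n = 4), 4.55 ± 0.733 CPM (SD, n = 4) and 4.32 ± 0.316 CPM (SD, n = 3) in wt, Zmat3-/- and TKO mice. Its log2FC of −0.27 in TKO against wt mice (−0.76 to 0.21) had an adjusted p of 0.643 from edgeR. The log2FC was −0.13 in TKO against Zmat3-/- (−0.57 to 0.30) and −0.15 in Zmat3-/- against wt mice (−0.55 to 0.25), and all genotypes overlapped.

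Tnfrsf1b (ENSMUSG00000028599.10, chromosome 4 from 145213463 to 145246870, minus strand) had means of 38.9 ± 6.42 CPM (SD, n = 4), 38.9 ± 2.61 CPM (SD, n = 4) and 41.4 ± 3.90 CPM (SD, n = 3) in wt, Zmat3-/- and TKO mice. The intervals of its log2FC lay within −0.30 to 0.39 in all 3 comparisons. Fasl (ENSMUSG00000000817.10, chromosome 1 from 161780689 to 161788495, minus strand), which cytotoxic T cells and NK cells make, was counted at 1.46, 1.74, 0.913 and 0.769 CPM in wt mice 1 to 4. The Zmat3-/- mice had 1.12 to 1.79 CPM and the TKO mice 1.33 to 1.76 CPM, from 20 to 120 counts a library over all mice. The log2FC was 0.32 in TKO against wt mice (95% interval −0.53 to 1.17, adjusted p = 0.742 from edgeR), 0.14 in TKO against Zmat3-/- (−0.45 to 0.73) and 0.18 in Zmat3-/- against wt mice (−0.53 to 0.90). The interval in TKO against wt mice held both no difference and a doubling.

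The other receptors of the family were measured alongside. Of 21 listed, 14 were tested, and edgeR found 0 at an adjusted p under 0.05 in TKO against wt, TKO against Zmat3-/- and Zmat3-/- against wt mice (1, 0 and 2 at an unadjusted p under 0.05, DESeq2 0 in each). Tnfrsf13b, the receptor TACI, was the highest in CPM and had a log2FC of −0.37 in TKO against wt (adjusted p = 0.442) and −0.24 in Zmat3-/- against wt mice (adjusted p = 0.298). Tnfrsf18, the receptor GITR of regulatory and activated T cells, had −0.54 and −0.45 (adjusted p = 0.557 and 0.405), and Tnfrsf26 had 0.00 and −0.10 (adjusted p = 0.999 and 0.735). Among 17 ligands 10 were tested, and edgeR found 0 at an adjusted p under 0.05 in the same 3 comparisons (0, 1 and 2 at an unadjusted p under 0.05, DESeq2 0, 1 and 0). The gene found by DESeq2 was Tnfsf14, the ligand LIGHT, with a log2FC of 0.68 from edgeR in TKO against Zmat3-/- mice (adjusted p = 0.371). Ltb, which encodes lymphotoxin beta, had a log2FC of −0.56 in TKO and −0.52 in Zmat3-/- against wt mice (adjusted p = 0.592 and 0.375). Tnfsf10, which encodes TRAIL, had 0.16 and 0.18 (adjusted p = 0.818 and 0.735), and Cd40lg had −0.20 and −0.26 (adjusted p = 0.708 and 0.357). Tnfsf12, which encodes TWEAK, the ligand of FN14, was at 0.788 to 3.52 CPM over all mice.

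Of 35 genes of death receptor signalling 33 were tested, and Tnfaip3, which encodes the ubiquitin-editing NF-kB inhibitor A20, was the only one to pass. From a wt mean of 127 ± 16.4 CPM (SD, n = 4), Tnfaip3 rose to 441 ± 14.05 CPM (SD, n = 4) in Zmat3-/- mice and to 506 ± 85.0 CPM (SD, n = 3) in TKO mice. The log2FC was 1.80 in Zmat3-/- (standard error 0.126, adjusted p = 0.000753 from edgeR) and 1.95 in TKO against wt mice (standard error 0.160, adjusted p = 0.00274), and the mutant mice, at 421 to 602 CPM, did not overlap the wt mice at 104 to 140 CPM. Between TKO and Zmat3-/- mice it was 0.14 (adjusted p = 0.983), and edgeR found 0 of the 33 at an unadjusted p under 0.05 there. DESeq2 called Ripk1 and Tab2 as well in Zmat3-/- against wt mice, where edgeR gave log2FC values of 0.46 (adjusted p = 0.0709) and 0.27 (adjusted p = 0.169). Rbck1, part of the linear ubiquitin ligase, had −0.18 in Zmat3-/- against wt mice (adjusted p = 0.449). Fadd was at 9.33 to 19.9 CPM, Casp8 at 59.4 to 73.8 CPM and Cflar, which encodes the caspase-8 inhibitor c-FLIP, at 88.2 to 210 CPM over all mice, and none of these passed. With the replicate numbers as pairs Tnfaip3 had a log2FC of 1.81 in Zmat3-/- against wt mice (adjusted p = 0.0157 from edgeR). Against wt mice 1 and 2 alone its log2FC was 1.96 in Zmat3-/- and 2.11 in TKO mice, and against wt mice 3 and 4 alone it was 1.65 and 1.80. The 6 immediate-early genes named above rose in the same comparisons as Tnfaip3, and their part in its rise was not tested.

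Other targets of TRP53, 19 of 20 tested, gave 0 at an adjusted p under 0.05 in edgeR in all 3 comparisons (6 in TKO against wt, 3 in TKO against Zmat3-/- and 4 in Zmat3-/- against wt mice at an unadjusted p under 0.05, DESeq2 1, 1 and 4). Cdkn1a, Bbc3 and Zmat3, deleted in the mutants, are on this list. They were the 3 genes in TKO against Zmat3-/- mice and were among the 6 in TKO against wt mice. The gene called by DESeq2 was Btg2 in TKO against wt and Cdkn1a in TKO against Zmat3-/- mice. Of all genes, 10.3%, 4.49% and 16.1% had an unadjusted p under 0.05 in these comparisons, in the same order. The 4 genes that DESeq2 called in Zmat3-/- against wt mice were Aen, Btg2, Pmaip1 and Zmat3 itself. With edgeR Pmaip1, which encodes the BH3-only protein NOXA, had a log2FC of 1.02 in Zmat3-/- (adjusted p = 0.0727) and 0.75 in TKO against wt mice (adjusted p = 0.427), and Aen, which encodes an apoptosis-enhancing nuclease, had −0.46 and −0.37 (adjusted p = 0.0707 and 0.427). Btg2, an antiproliferative gene, had a log2FC of −0.45 in Zmat3-/- (adjusted p = 0.0797) and −0.50 in TKO against wt mice (adjusted p = 0.328). Trp53inp1 had 0.20 and 0.28 (adjusted p = 0.630 and 0.668), and Mdm2, whose product degrades TRP53, had 0.00 and 0.03 (adjusted p = 0.990 and 0.939). The TRP53 targets Fas and Tnfrsf10b had log2FC values of −0.09 and −0.15 in Zmat3-/- against wt mice.

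The genes most like each of the 8 over the 11 mice were taken from 12961 genes tested in all comparisons, by Pearson's r of log2 CPM, as a description without a test. Genotype, depth and the wt pair differed between these mice, and their part in the correlations was not tested. Fas was closest to Actr10 (r = 0.984), Dntt (0.974), which encodes the template-independent DNA polymerase TdT of immature thymocytes, and Snx1 (0.971). Tnfrsf9 was closest to Gtf2f2 (0.991), Mrpl22 (0.986) and Stx8 (0.984), Cd27 to Tbxa2r (0.981), Mgat1 (0.967) and Tmem221 (0.960), and Tnfrsf1b to Pcbp1 (0.967), Rab3d (0.949) and Me2 (0.939). Tnfrsf1a was closest to Tsc22d4 (0.942), B4galt1 (0.935) and Lman2 (0.924), Tnfrsf12a to the T cell receptor segment Trav7d-5 (0.921), Dedd2 (0.912) and Glo1 (0.892), Tnfrsf10b among others to Il15ra (0.883) and Mgl2 (0.859), and Fasl to Krcc1 (0.906), Tma16 (0.891) and 5830405F06Rik (0.882). Glo1 is on chromosome 17 among the 19 genes near Cdkn1a. Among the 8 genes themselves Fas and Tnfrsf9 were the closest pair (r = 0.928), followed by Tnfrsf1b and Tnfrsf9 (0.703) and Tnfrsf1a and Tnfrsf1b (0.660), and Tnfrsf10b and Tnfrsf12a were the farthest apart (−0.484).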

How the data were processed

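Thymocyte RNA-seq libraries of 4 wt mice, 4 Zmat3-/- mice and 3 TKO mice were grouped by the genotype in the labels. The authors made TruSeq (unstranded) libraries, sequenced them paired end, quantified the reads with Salmon in nf-core/rnaseq (GRCm38.p6, GENCODE) and deposited estimated counts per gene, which were all whole numbers, without normalization. Of 54418 genes, 54166 were matched by identifier to GENCODE M21 for names and positions. Each pair of genotypes was fitted in edgeR 4.0.16 under R 4.3.3 with TMM factors and the two-sided quasi-likelihood F-test, and p-values were adjusted after Benjamini-Hochberg over all tested genes. A gene was tested where at least as many mice as the smaller genotype holds had 20 counts after scaling to the library of lowest depth. Xist, rRNA genes, genes of chromosome Y and non-coding immunoglobulin genes were not tested. The standard error is the absolute log2FC over the square root of F. CPM used TMM factors over all 11 mice. For single levels, log2 CPM (prior count 2) went into exact permutation tests, two-sided. The authors used DESeq2 1.40.0 with sex and surrogate variables. The labels give no sex, and DESeq2 1.42.0, the Xist level and 1 surrogate variable (sva 3.50.0) were alternatives. Samples are separate mice, so p-values measure the spread between mice. Further alternatives were RLE size factors, other filters on low counts, all genotypes in 1 fit, all gene classes kept, a replicate block and leaving out each mouse. The fits with 1 pair of wt mice and the difference of the effect between mice of high and low Xist, and the block and wt-pair values of list genes, were chosen after seeing the data.

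The genes and lists were chosen with earlier results of these data known. All 8 members are named, as are list genes past an adjusted p of 0.05 or, where fewer than 3 passed, the 3 of highest mean CPM, the 3 genes most correlated with each member and, of the 44 genes within 250 kb of Tnfrsf12a that the rule took, the 11 tested between TKO and Zmat3-/- mice and Prss41. Of the genes most correlated with Tnfrsf10b, 1 is not reported here. Tnfsf14, Ripk1, Tab2, Aen, Pmaip1, Jun, Junb, Egr2, Tnfsf12, Cd70, Fadd, Casp8, Cflar and the genes of the chromosome 17 figure were named after their values were seen. Of the marker lists, only those of thymocytes and immediate-early genes are given by gene, the others by counts and sums. The scripts were tested on simulated data. The replicate numbers of Zmat3-/- and wt mice were treated as pairs, since same-numbered mice deviated from their group means together (r = 0.127 to 0.338 over 4 pairs). Mice 1 and 2 also deviated together across numbers (r = 0.378 and 0.180), as did mice 3 and 4 (r = 0.156 and 0.246), so the numbers and the split into mice 1 and 2 against 3 and 4 cannot be told apart here, and neither the labels nor the methods describe pairs. The values given are from the fit without this block unless it is named. A library at 3 counts shows 0.0403 to 0.167 CPM, which covers counting error only.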

Additional observations from a re-analysis of the deposited data

Results flagged for a closer look

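Among the 16 sets of 4 mice examined, the 8 genes in wt and in Zmat3-/- mice, 1 held a mouse far from the others: Zmat3-/- mouse 3 had 10.03 CPM of Tnfrsf9, where Zmat3-/- mice 1, 2 and 4 had 11.5 to 11.6 CPM. Chance marks about 1 in 20 such sets.

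The effect of genotype differed between mice of high and low Xist level for 3 genes, by an interaction term fitted in edgeR over all tested genes. The log2FC of Tnfrsf9 in mice of high Xist less that in mice of low Xist was −1.04 (standard error 0.277, adjusted p = 0.0369) for TKO against wt and −0.93 (standard error 0.201, adjusted p = 0.00482) for Zmat3-/- against wt mice. In Zmat3-/- against wt mice it was −0.69 for Fas (standard error 0.120, adjusted p = 0.00166) and −0.31 for Cd27 (standard error 0.106, adjusted p = 0.0396). Such a difference was found for 23.1% of all tested genes in TKO against wt mice and 44.2% in Zmat3-/- against wt mice. In TKO against Zmat3-/- mice edgeR found it for 0 of 13132 genes, with 1157 at an unadjusted p under 0.05, and DESeq2 was not run for this term. The mice of high Xist among the wt mice are wt mice 1 and 2, whose libraries stand apart from wt mice 3 and 4, so that the Xist class and the library pair cannot be told apart. The term for TKO mice rests on 1 TKO mouse of high Xist.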

How the results depend on the processing

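The number of the 8 genes called DE fell from 1 to 0 with the replicate block in TKO against wt and in TKO against Zmat3-/- mice, and lay between 0 and 1 in both when each mouse was left out. At an adjusted p under 0.05, the 1 gene in TKO against wt mice became 2 with DESeq2 (2.88% of all genes) and 2 with 1 surrogate variable (18.0%). It became 0 with the replicate block (16 of 13074 genes) and 4 with wt mice 1 and 2 alone (43.6%). It lay between 0 and 1 without single mice. In TKO against Zmat3-/- mice it became 0 with the block and lay between 0 and 1 without single mice. In Zmat3-/- against wt mice the 0 genes became 2 with DESeq2, 2 with 1 surrogate variable, 4 with wt mice 1 and 2 alone and 3 with wt mice 3 and 4 alone. In these fits 8.03%, 37.8%, 56.1% and 33.0% of all genes passed. The cause of these changes was not tested. For Tnfrsf12a the block gave a log2FC of 2.28 (adjusted p = 0.0744) in TKO against wt and 1.70 (adjusted p = 0.116) in TKO against Zmat3-/- mice, fits without mouse 4. TKO mice shared only a number with the others (r of same-numbered mice 0.0725 to 0.405 with wt and 0.0105 to 0.194 with Zmat3-/- mice), and not every mouse correlated best with its own number. The pairing of Zmat3-/- and wt mice changed none of the 8 calls, with genes DE falling from 43 to 8.

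The following log2FC values changed sign, all of them without a call of DE. With wt mice 3 and 4 alone, Fas became 0.16 and Tnfrsf9 0.28 in TKO against wt, and 0.19 and 0.41 in Zmat3-/- against wt mice. With wt mice 1 and 2 alone, Fasl became −0.043, Tnfrsf1a −0.017 and Tnfrsf1b −0.12 in TKO against wt, and −0.20, −0.074 and −0.17 in Zmat3-/- against wt mice. Fas became 0.0195 with the replicate block in TKO against Zmat3-/- mice. Tnfrsf1b in Zmat3-/- against wt mice became −0.00121 with no filter, −0.000676 with filterByExpr and −0.000461 with all 3 genotypes in 1 fit. Leaving out single mice gave −0.040 to 0.12 for Tnfrsf1b in TKO against wt mice. In TKO against Zmat3-/- mice it gave −0.067 to 0.0197 for Fas and −0.0115 to 0.14 for Tnfrsf1a. In Zmat3-/- against wt mice it gave −0.20 to 0.0079 for Fas, −0.017 to 0.080 for Tnfrsf1a, −0.076 to 0.073 for Tnfrsf1b and −0.37 to 0.0114 for Tnfrsf9. Of all log2FC values under the alternatives, 378 kept direction and side of the threshold, 15 passed it, 7 lost it and 24 changed sign. A prior count of 0.5 changed none of the 24 permutation results. With the longest transcript in place of joined exons, 5 of the 8 levels per kb moved by more than their SD.

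Genes at an adjusted p under 0.05 numbered 39 in TKO against wt, 29 in TKO against Zmat3-/- and 103 in Zmat3-/- against wt mice. With DESeq2 they numbered 382, 72 and 1082, with all 3 genotypes in 1 fit 216, 16 and 239, with no filter 61, 90 and 55, with 1 surrogate variable 2385, 35 and 5091, and with the block 16, 20 and 12. Leaving out any TKO mouse gave 16 to 18 in TKO against wt mice (15 to 17 DE, from 32). In Zmat3-/- against wt mice leaving out any Zmat3-/- mouse gave 17 to 21 (12 to 14 DE, from 43), and leaving out wt mouse 2, 3 or 4 gave 46, 38 or 33 (30, 25 or 20 DE). The Xist level as a covariate gave 164 in Zmat3-/- against wt mice. Fasl and Tnfrsf12a in wt mice rest on at most 95 counts a library.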
